A study of Mus musculus with 8 samples.

Results

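Expression of 8 genes that handle phosphate and pyrophosphate during mineralisation was measured in 7 sorted populations of mouse bone marrow stromal cells and in an input library. The 8 genes were Alpl, Phospho1, Smpd3, Enpp1, Ank, Slc20a1, Slc20a2 and Mgp, and they made up 8 of the 49315 genes counted. They were chosen by name, with earlier results of these data known, and matched to the deposited Ensembl identifiers by symbol. The study split the stromal fraction of bone marrow into populations by surface antigens and compared their transcriptomes by RNA-seq. Each population, called cluster 1 to cluster 7, and the input had 1 library, so the spread between repeat sorts is unknown, no test between populations was possible and the 95% intervals given here cover counting error only.

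The labels give wild type C57BL/6J mice, 6 weeks old and without any treatment, for all libraries. The study's Methods name the mice as C57BL/6JJcl, give an age range that starts at 6 weeks and also list transgenic mice that express EGFP. The RNA-seq part of the Methods does not say which mice were used. Every sorted population was negative for the endothelial antigen CD31, the leukocyte antigen CD45 and the erythroid antigen Ter119. Cluster 1 was further sorted as CD24-, Sca-1+ and CD39+, cluster 2 as Ly-6C-, CD39- and CD24-, cluster 3 as Ly-6C+, CD24+, CD39- and CD54-, and cluster 4 as Ly-6C-, CD54+ and CD24-. Cluster 5 was sorted as CD54+, CD121b- and negative for CD24 or Ly-6C, cluster 6 as CD24+, Sca-1- and CD39-, and cluster 7 as CD54-, Sca-1+ and negative for CD24 or Ly-6C. These gates were read from the study's plots. The input library was labelled as bone marrow cells, and the labels describe its RNA, like that of the sorted libraries, as coming from crushed marrow. Whether mice were pooled for a library was not given in the sources used here. Between 12833648 (cluster 5) and 33238133 (cluster 7) reads were counted on genes in the sorted libraries and 20162876 in the input.

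Mineral forms in bone and growth plate cartilage when phosphate and calcium precipitate in and around matrix vesicles, and pyrophosphate, which binds to the growing crystal, holds this back. Tissue-nonspecific alkaline phosphatase, encoded by Alpl, splits pyrophosphate into phosphate, PHOSPHO1 frees phosphate from phosphocholine inside the vesicles, and the neutral sphingomyelinase encoded by Smpd3 yields phosphocholine from sphingomyelin. Enpp1 makes pyrophosphate from ATP, Ank lets pyrophosphate and ATP reach the outside of the cell, Slc20a1 and Slc20a2 encode the sodium-phosphate cotransporters PiT-1 and PiT-2, and matrix Gla protein, encoded by Mgp, inhibits calcification.

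Upstream sequences are shown for Alpl, Phospho1, Enpp1 and Ank, which were all highest in cluster 6. They cover the 250 bases before the RefSeq start site (GRCm38.p6), written 5′ to 3′ on the strand of the gene, and capitals mark the motifs searched. The motifs were the Runx core ACCACA, the GC box GGGCGG and the TATA box TATAAA, each on both strands and with overlapping matches counted. The table had entries for 5 of the 8 genes and none for Slc20a2, Smpd3 and Mgp. Of the 32851 windows in the RefSeq table, 14.0% held the Runx core, 32.7% the GC box and 12.4% the TATA box.
Alpl, chr4:137796385-137796634, minus strand: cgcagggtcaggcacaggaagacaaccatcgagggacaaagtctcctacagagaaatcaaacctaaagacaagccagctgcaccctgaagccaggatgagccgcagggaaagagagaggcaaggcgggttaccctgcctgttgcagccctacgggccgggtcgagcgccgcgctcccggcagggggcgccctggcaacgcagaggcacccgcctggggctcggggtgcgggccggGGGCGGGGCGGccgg
Phospho1, chr11:95824250-95824499, plus strand: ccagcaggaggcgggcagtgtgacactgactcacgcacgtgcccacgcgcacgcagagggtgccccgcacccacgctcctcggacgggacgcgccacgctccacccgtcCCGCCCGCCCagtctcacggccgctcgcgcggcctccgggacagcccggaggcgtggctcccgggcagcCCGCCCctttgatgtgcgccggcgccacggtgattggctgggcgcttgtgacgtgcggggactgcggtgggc
Enpp1, chr10:24712160-24712409, minus strand: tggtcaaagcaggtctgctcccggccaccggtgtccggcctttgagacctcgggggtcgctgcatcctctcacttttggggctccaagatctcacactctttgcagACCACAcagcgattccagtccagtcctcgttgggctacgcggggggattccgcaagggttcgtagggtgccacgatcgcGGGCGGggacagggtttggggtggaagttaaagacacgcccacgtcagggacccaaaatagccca
Ank, chr15:27466427-27466676, plus strand: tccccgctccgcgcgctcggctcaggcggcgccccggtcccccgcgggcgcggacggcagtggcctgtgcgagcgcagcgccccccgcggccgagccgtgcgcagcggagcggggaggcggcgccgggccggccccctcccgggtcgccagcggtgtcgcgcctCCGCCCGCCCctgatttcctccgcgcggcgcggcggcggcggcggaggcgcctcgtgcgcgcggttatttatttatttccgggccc
The Alpl window held 2 GC boxes, that of Phospho1 3 and that of Ank 2, and none of these windows held the Runx core or the TATA box. The window of Enpp1 held 1 Runx core and 1 GC box. Alpl has a further RefSeq start site, whose window at chr4:137766476-137766725 held 1 TATA box and neither of the other motifs. Of the 2 windows of Slc20a1, that at chr2:129198523-129198772 held 1 Runx core and 2 GC boxes, and that at chr2:129206846-129207095 held 1 GC box. A match is a run of letters only and was not tied to binding of a factor here.

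Cluster 6 had the highest RPKM of 5 of the 8 genes, namely Alpl, Phospho1, Smpd3, Enpp1 and Ank, whereas 7.10% of all genes above the expression filter were highest in that library. Slc20a1, Slc20a2 and Mgp were highest in cluster 4, where 8.95% of genes had their maximum. By total count, 25.5% of genes were lowest in cluster 6, and these shares were not recomputed under another scaling. Because the 8 genes were chosen with earlier results known, setting them against these shares is a description only. RPKM is the read count scaled by the exon length of the gene and by the total count of the library, and the filter was RPKM above 2 in at least 1 sorted library, which 12360 genes and all 8 genes of interest passed. The highest and the lowest sorted library differed by more than 2-fold, on the scale of RPKM + 1, for 6 of the 8 genes, namely all but Slc20a1 and Slc20a2. The background was high, since 70.6% of all genes passed the same threshold. The median log2 difference between the highest and the lowest library was 1.97 over the 8 genes and 1.26 over all genes tested.

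**Figure D1:**
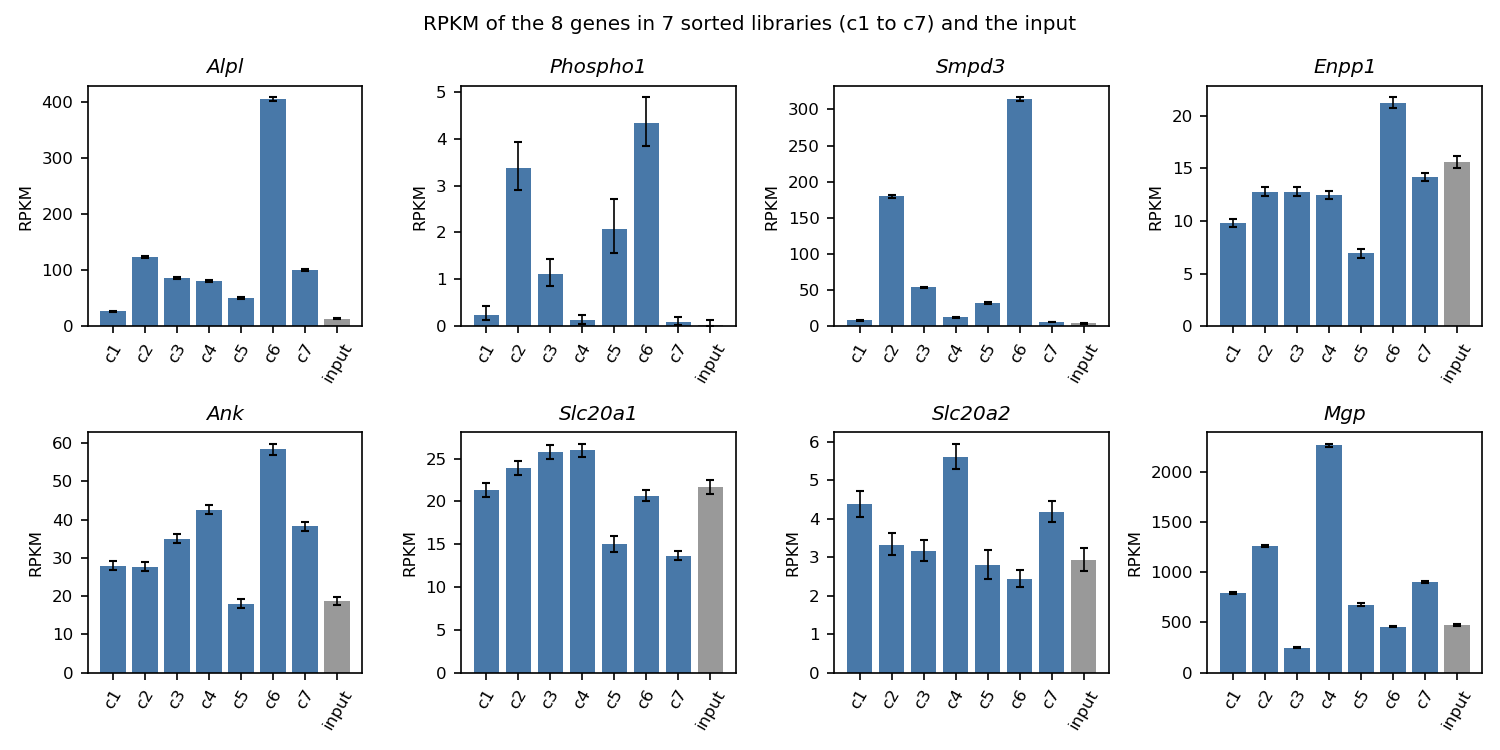
RPKM (y axis, linear, a separate scale for each gene) of the 8 genes in the 7 sorted libraries (blue, c1 to c7 for clusters 1 to 7) and the input (grey), with 95% Poisson intervals as error bars and 1 library for each bar. Alpl, Phospho1, Smpd3, Enpp1 and Ank peaked in cluster 6, and Mgp reached 2263 in cluster 4.

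Alpl (ENSMUSG00000028766) lies on the minus strand of chr4:137741733-137796384 with 4033 exon bases. Its RPKM was 26.5, 124, 85.3, 80.6, 49.8, 404 and 99.5 in clusters 1 to 7, in this order, and 13.1 for the input. Cluster 6 stood apart, while clusters 2, 3, 4 and 7 lay close to each other and cluster 1 was the lowest sorted library. The value in cluster 6 was 3.27-fold that of the next library, cluster 2 (95% interval 3.21 to 3.33), and 15.3-fold that of cluster 1 (14.7 to 15.9). No pair of neighbours in the order of the libraries had an interval of the ratio that included 1, although clusters 3 and 4 differed by 1.06-fold only (1.03 to 1.09). The other alkaline phosphatase genes, Alpi, Akp3 and Alpg, had at most 7 counts in any sorted library.

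Phospho1 (ENSMUSG00000050860, chr11:95824499-95832140, plus strand) had the fewest reads of the 8 genes. It had 12, 174, 61, 8, 54, 279 and 6 counts in clusters 1 to 7 and 1 count in the input. These counts gave an RPKM of 0.244, 3.38, 1.11, 0.121, 2.07, 4.34 and 0.0890 in clusters 1 to 7 and of 0.0244 in the input. Clusters 2, 3, 5 and 6 lay clearly above clusters 1, 4 and 7, among which the intervals of the ratio between neighbours included 1. Cluster 6 was 1.28-fold above cluster 2 (1.06 to 1.56) and 48.8-fold above cluster 7 (22.1 to 134).

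The level of Phospho1 is understated by the deposited counts. Of its 2029 exon bases, 1818 (89.6%) are shared with exons of Zfp652 on the same strand, and 1708 with exons of Abi3 on the opposite strand, which leaves 211 bases of its own. Among all genes, 408 had every exon base shared on the opposite strand only, and 407 of these (99.8%) had 0 counts in all 8 libraries, as had 586 of 631 genes (92.9%) fully covered on the same strand, against 15.2% of all genes. Reads on shared bases were therefore largely left out of the counts. Over the unshared bases, a measure added after the data were seen, Phospho1 had an RPKM of 2.35, 32.5, 10.7, 1.16, 19.9, 41.8 (37.0 to 47.0) and 0.856 in clusters 1 to 7, and 0.235 in the input. This multiplies every library by the same factor, so the order of the libraries is fixed. The share of exon bases lost in this way was 13.1% in Slc20a1, 4.72% in Smpd3, 1.80% in Ank, 1.53% in Slc20a2 and 0 in Alpl, Enpp1 and Mgp.

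Smpd3 (ENSMUSG00000031906, chr8:106252548-106337988, minus strand) varied most. Its RPKM was 7.98, 180, 53.6, 12.0, 32.0, 314 and 5.54 in clusters 1 to 7, against 3.73 for the input. Clusters 2 and 6 were far above the rest, clusters 3 and 5 were intermediate, and clusters 1, 4 and 7 were low. Cluster 6 exceeded cluster 2 by 1.75-fold (1.72 to 1.77) and cluster 7 by 56.6-fold (53.1 to 60.4). Of all genes tested, 99.5% had a smaller log2 range than Smpd3, 98.0% a smaller range than Alpl and 96.2% a smaller range than Mgp.

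Among the enzymes that release phosphate or its precursor, Alpl did not share the low values of Smpd3 and Phospho1 in clusters 4 and 7. At 99.5, cluster 7 was the third highest sorted library for Alpl and the lowest for Smpd3 and Phospho1, and the ratio of Smpd3 to Alpl was 0.0557 there (0.0522 to 0.0595). In cluster 4 the ratio was 0.149 (0.142 to 0.156) and in cluster 1 it was 0.301 (0.280 to 0.324). Cluster 2 was the only library in which Smpd3 exceeded Alpl, with a ratio of 1.45 (1.42 to 1.49), against 0.777 in cluster 6 (0.768 to 0.787), 0.628 in cluster 3 and 0.642 in cluster 5. These ratios are taken within a library and do not depend on the scaling between libraries.

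Enpp1 (ENSMUSG00000037370, chr10:24637914-24712159, minus strand), which supplies pyrophosphate, spanned a narrower range. Its RPKM was 9.79, 12.8, 12.8, 12.5, 6.91, 21.2 and 14.2 in clusters 1 to 7, against 15.6 for the input. By total count only cluster 6 lay above the input (5 of the 7 with TMM factors, which scale by the bulk of genes), and clusters 2, 3 and 4 could not be ordered, since the intervals of the ratios between neighbours included 1. Cluster 6 was 1.50-fold above cluster 7 (1.44 to 1.56) and 3.08-fold above cluster 5 (2.87 to 3.30).

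Ank (ENSMUSG00000022265, chr15:27466677-27594909, plus strand) had an RPKM of 27.9, 27.7, 34.9, 42.6, 18.0, 58.4 and 38.2 in clusters 1 to 7 and of 18.6 in the input. As with Enpp1, cluster 6 was the highest and cluster 5 the lowest, although with TMM factors Enpp1 was lowest in cluster 1, and clusters 1 and 2 were not distinguishable by counting error. The ratio of cluster 6 to cluster 4, the next library, was 1.37 (1.32 to 1.42). Per length, Ank exceeded Enpp1 in every library, with an Enpp1 to Ank ratio between 0.293 in cluster 4 and 0.461 in cluster 2 among the sorted libraries, and 0.837 in the input.

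The balance of the phosphatase against the pyrophosphate-forming enzyme was measured as the ratio of Alpl to Enpp1 RPKM within each library. From cluster 1 to cluster 7 it was 2.70 (2.56 to 2.86), 9.68 (9.31 to 10.1), 6.67, 6.46, 7.21, 19.0 (18.5 to 19.5) and 7.02. The input, at 0.838 (0.781 to 0.899), was the only library in which Enpp1 exceeded Alpl, and clusters 3, 4, 5 and 7 lay close together. Against Ank, Alpl ranged from 0.949 in cluster 1 (0.897 to 1.00) to 6.92 in cluster 6 (6.75 to 7.10) among the sorted libraries, with 0.701 in the input. Cluster 6 thus had the highest Enpp1 and Ank values and, at the same time, the highest excess of Alpl over each of them.

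**Figure D2:**
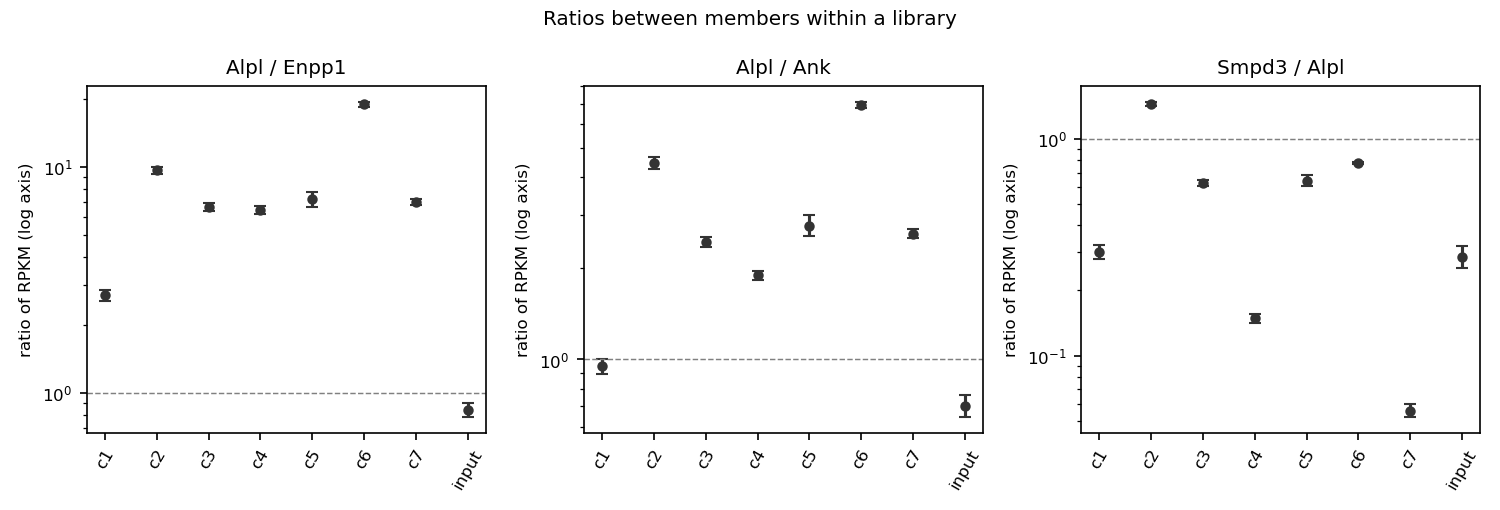
Ratio of RPKM (y axis, log scale) of Alpl to Enpp1, Alpl to Ank and Smpd3 to Alpl in each library, with 95% binomial intervals and a dashed line at 1. The Alpl to Enpp1 ratio was 19.0 in cluster 6 and 0.838 in the input, and the Smpd3 to Alpl ratio was above 1 in cluster 2.

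The phosphate transporters were the most even of the 8 genes. Slc20a1 (ENSMUSG00000027397, chr2:129198764-129211616, plus strand) had an RPKM of 21.3, 23.9, 25.8, 26.0, 15.0, 20.7 and 13.7 in clusters 1 to 7 and 21.7 in the input. Slc20a2 (ENSMUSG00000037656, chr8:22476788-22569612, plus strand) had an RPKM of 4.38, 3.33, 3.15, 5.60, 2.80, 2.43 and 4.18 in clusters 1 to 7 and 2.92 in the input. Both peaked in cluster 4, but for Slc20a1 clusters 3 and 4 were within counting error (ratio 1.01, 0.964 to 1.05), and the highest library changed with the scaling, being cluster 6 with TMM factors. Slc20a2 was lowest in cluster 6, where most of the other members were highest, although clusters 2, 3, 5 and 6 overlapped between neighbours. Slc20a1 exceeded Slc20a2 in every library, by 3.27-fold in cluster 7 (3.02 to 3.53) up to 8.50-fold in cluster 6 (7.73 to 9.37).

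Mgp (ENSMUSG00000030218, chr6:136872435-136875823, minus strand) was the most abundant of the 8 per length in every library. Its RPKM was 792, 1260, 245, 2263, 677, 457 and 905 from cluster 1 to cluster 7, and 475 for the input. Cluster 4 was high, clusters 3 and 6 were low and no neighbouring libraries overlapped in counting error. Cluster 4 exceeded cluster 2 by 1.80-fold (1.77 to 1.82) and cluster 3 by 9.23-fold (9.02 to 9.44). The excess of the inhibitor over the phosphatase, as the ratio of Mgp to Alpl, was 29.9 and 28.1 in clusters 1 and 4, 13.6 and 10.2 in clusters 5 and 2, 9.10 in cluster 7 and 2.88 in cluster 3, and came down to 1.13 in cluster 6 (1.11 to 1.15). The input had the highest ratio, 36.3 (34.1 to 38.7).

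Each sorted library was then set against the median of the other 6, with a difference above 2-fold on the scale of RPKM + 1 counted. In cluster 6, Alpl (log2 difference 2.27), Phospho1 (1.67) and Smpd3 (3.78) were above, as were 4.47% of all genes, and none was below, as were 10.5%. The median over the 8 genes was 0.79 there, against -0.25 over all genes. In cluster 2, Phospho1 (1.39) and Smpd3 (2.98) were above (8.33% of all genes) and none was below (4.73%). In cluster 1, Alpl (-1.76), Phospho1 (-1.06) and Smpd3 (-2.29) were below (1.73% of all genes) and none was above (5.21%). The differences of Phospho1 rest on the pseudocount, since its RPKM over all exon bases, which understates its level, was at most 4.34. With a pseudocount of 0.1 it was at -2.30 in cluster 1, 2.16 in cluster 2 and 2.52 in cluster 6. Leaving out cluster 5 or leaving out cluster 6 brought it, with a pseudocount of 1, to -0.76 in cluster 1, -0.91 in cluster 4 and -0.95 in cluster 7, so that it no longer passed.

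In cluster 4, Mgp (1.62) was above, as were 4.47% of all genes, and Phospho1 (-1.21) and Smpd3 (-1.75) were below (1.47%). With a pseudocount of 0.1, Phospho1 was at -2.94 in cluster 4 and -3.16 in cluster 7. In cluster 7, Phospho1 (-1.25) and Smpd3 (-2.74) were below (2.69% of all genes) and none was above (6.49%). In cluster 3, Smpd3 (1.25) was above (3.61% of all genes) and Mgp (-1.79) was below (3.31%). By total count none of the 8 passed in cluster 5 in either direction, where 3.79% of all genes were above and 13.5% below. Without cluster 6, Smpd3 (1.34) and Phospho1 (1.30) were above in cluster 5, and with a pseudocount of 0.1 Phospho1 was above (1.48) and Ank below (-1.02). By total count and with a pseudocount of 1, Enpp1, Ank, Slc20a1 and Slc20a2 did not pass in any library. The call of Smpd3 in cluster 3 was lost with TMM factors (0.95), and with these factors Enpp1 (1.04) and Ank (1.22) passed in cluster 6 and Phospho1 (1.18, against 0.87 by total count) in cluster 5. Enpp1, Ank and Phospho1 thus depended on the scaling in these libraries. The shares of all genes given here are by total count and were not recomputed with TMM factors.

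**Figure D3:**
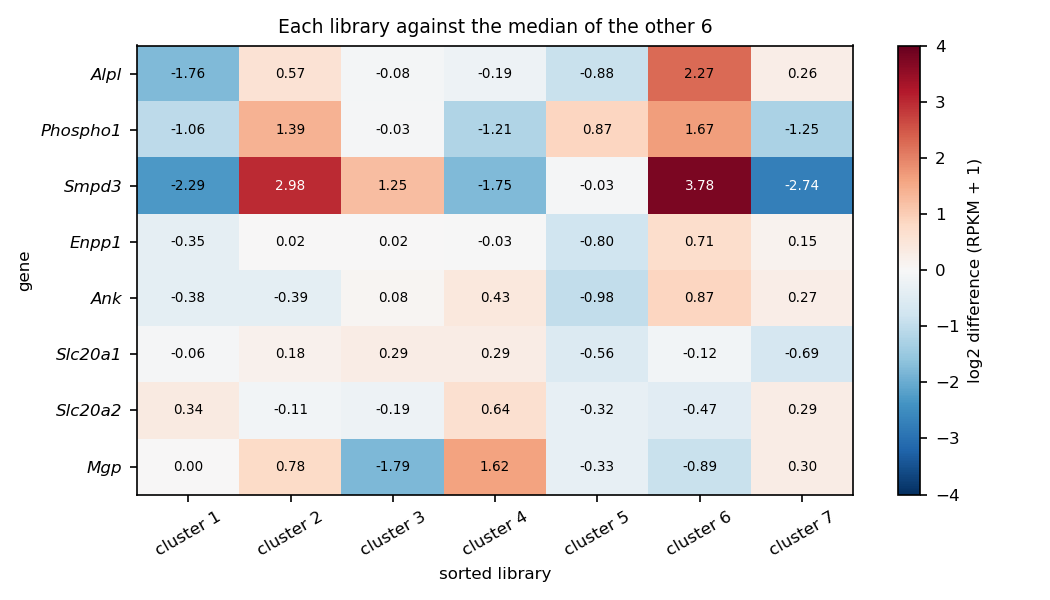
Log2 difference (colour and printed value) between the RPKM + 1 of a sorted library (x axis) and the median of the other 6, for the 8 genes (y axis). Smpd3 had the highest value, 3.78 in cluster 6, and the lowest, -2.74 in cluster 7, and the rows of Slc20a1 and Slc20a2 stayed within 1 on either side of 0.

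Against the input, the median of the sorted libraries was higher by more than 2-fold for Alpl (log2 difference 2.62), Phospho1 (1.04) and Smpd3 (2.80), as it was for 4.47% of all genes. For Phospho1 the difference was 3.28 with a pseudocount of 0.1, and with a pseudocount of 1 it was 0.71, and did not pass, when either cluster 5 or cluster 6 was left out. The median of the sorted libraries was lower for none of the 8, against 15.6% of all genes. Alpl, Phospho1 and Smpd3 were above the input in all 7 sorted libraries, whereas Enpp1 was above it in 1 and Slc20a1 in 3. With 1 read in the input, Phospho1 could not be placed there more precisely than between 0.000619 and 0.136 RPKM. The intervals of Phospho1 in cluster 1 (0.126 to 0.427), cluster 4 (0.0523 to 0.239) and cluster 7 (0.0326 to 0.194) overlapped that of the input. By counting error, Phospho1 could therefore not be placed above the input in these libraries. The input needed the largest scaling correction. With TMM factors its log2 values dropped by 0.68 and those of cluster 1 dropped by 0.14, while those of cluster 5 were higher by 0.44 and those of cluster 6 by 0.37. Directions against the input therefore depended on the scaling for Enpp1 and Slc20a1. Enpp1 was at -0.27 by total count and 0.36 with TMM factors, and Slc20a1 at -0.02 and 0.78. With TMM factors Ank (1.53, against 0.87 by total count) and Mgp (1.55, against 0.74) also passed 2-fold above the input, where the share of all genes was not recomputed.

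Across the 7 sorted libraries, Phospho1 and Smpd3 followed each other most closely (Pearson's r of log2(RPKM + 1) 0.95, n = 7 libraries). By total count, Enpp1 and Ank (0.93) came next, and then Alpl and Enpp1 (0.85). This order turned with TMM factors (0.94 and 0.95) and without cluster 5 (0.86 and 0.96). Without cluster 6, Alpl and Enpp1 had an r of 0.67. Alpl and Smpd3 had an r of 0.72 and Alpl and Phospho1 of 0.62, which dropped to 0.46 and 0.29 without cluster 6. Slc20a2 ran opposite to Phospho1 (-0.86) and Smpd3 (-0.76), and Slc20a2 and Mgp had an r of 0.70. These are descriptions over 7 libraries that share their scaling, and r changed with single libraries.

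The genes whose pattern was most like each member, by r over the 7 libraries among 7446 genes with RPKM above 2 and at least 50 counts, were named in the same way. For Alpl they were Cd200 (0.97), Ibsp (0.97) and Gpc1 (0.97), of which Ibsp encodes bone sialoprotein, and for Phospho1 Atp2a1 (0.99), Cdk5r1 (0.98) and 2310022B05Rik (0.96). For Smpd3 they were Rhbdl2 (0.98), Slc13a5 (0.98) and the cartilage collagen gene Col11a2 (0.98), with Col11a2 reaching an RPKM of 1108 in cluster 6. For Enpp1 they were Ctnnb1, Slc31a1 and P4ha1 (each 0.97), and for Ank Hk1 (0.98), Etv5 (0.98) and Lrrc8d (0.97). For Slc20a1 the likeness was lower, with Baiap2l1, Cyb561 and Gm13889 at 0.90, whereas Slc20a2 had Ifi30 (0.99), Cxx1c (0.99) and Chka (0.99), and Mgp had Fkbp1b (0.97), Erf (0.95) and Mzt2 (0.95). Of these 24 genes, 11 were kept with TMM factors and 7 without cluster 5, so most of the names depended on these choices. Ibsp and the 3 genes named for Smpd3 were lost under both.

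Of the 45 other genes listed for the same pathways, 33 passed the filter, and 26 of these (78.8%) differed by more than 2-fold between the highest and the lowest sorted library, against 70.6% of all genes. In cluster 6, 8 of the 33 were above the median of the other libraries by more than 2-fold (4.47% of all genes) and 3 were below (10.5%). Of the 33, 11 had their maximum there, against 7.10% of all genes, and the lists were chosen with earlier results of these data known. Ahsg, 1 of the 8 above, and Galnt3 had passed the filter only through cluster 6 and so had to have their maximum there. The median log2 difference of the 33 genes in cluster 6 was -0.05, against -0.25 over all genes and 0.79 over the 8 members. In cluster 5, 12 of the 33 were below (13.5% of all genes) and none above (3.79%), the library whose values TMM factors raised most.

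Among the genes that handle pyrophosphate and nucleotides, Ppa1, the cytosolic inorganic pyrophosphatase, followed Smpd3 in its high libraries, with an RPKM of 568 in cluster 2 and 346 in cluster 6 against 14.4 to 40.4 in the other 5. Nt5e, encoding the ecto-5'-nucleotidase CD73, reached 65.7 in cluster 6 and 32.0 in cluster 2, against 5.36 in cluster 5. Entpd1, which encodes the antigen CD39 used to sort clusters 1, 2, 3 and 6, was at 8.55 in the CD39+ cluster 1 and at 3.10, 2.27 and 4.52 in the CD39- clusters 2, 3 and 6, and was highest in cluster 7 (13.9), which was not sorted by CD39. Panx1, the ATP channel pannexin 1, was above in cluster 1 (7.05) and below in cluster 6 (1.04), Ppa2, the mitochondrial pyrophosphatase, stayed between 1.29 and 3.42, and Abcc6, an ATP release gene of the liver, was under the filter. In the ENPP family, Enpp2, encoding autotaxin, had the highest level (19.6 to 61.8), Enpp6, a choline phosphodiesterase, was above in clusters 3 (5.62) and 6 (7.53), and Enpp3 was above in clusters 1, 4 and 7 and lowest in cluster 6 (0.527). Enpp4 and Enpp5 reached at most 3.46 and 6.01, and Enpp7 had 0 counts in all sorted libraries.

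In the supply of phosphocholine, none of the 7 other genes was above by more than 2-fold in any library, against 3.61% of all genes in cluster 3 up to 8.33% in cluster 2, and Smpd2 (-1.16) and Slc44a1 (-1.37) were below in cluster 5, as were 13.5% of all genes. Among the sorted libraries, Slc44a1, a choline transporter, was between 9.51 and 30.7 (7.06 in the input) and the acid sphingomyelinase gene Smpd1 between 8.38 and 21.8. The choline kinase genes Chka and Chkb were between 6.39 and 14.2 and between 4.73 and 9.02 there. The level of Chkb is understated because 52.8% of its exon bases are shared with other genes. Phospho2, the paralogue of Phospho1, ranged from 1.92 to 3.87 in the sorted libraries, passed in none of them and was at 7.09 in the input. Of the phosphate transporters, Slc25a3, the mitochondrial carrier, was lowest among the sorted libraries in cluster 6 (29.0) and highest in cluster 2 (56.8). The exporter gene Xpr1 reached 2.09 in a sorted library. In the input Slc25a3 was at 68.4 and Xpr1 at 2.70. The renal and intestinal genes Slc34a1, Slc34a2 and Slc34a3 had at most 13 counts in a sorted library.

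Of the 8 listed genes of phosphate regulation by hormones and osteocytes, 5 passed the filter, and 2 of these, Dmp1 and Phex, were above by more than 2-fold in cluster 6, as were 4.47% of all genes. Dmp1, a mineral matrix protein gene of osteocytes, had an RPKM of 415 in cluster 6 and 203 in cluster 3 against 3.51 in cluster 1, and Phex, an endopeptidase gene mutated in hypophosphataemic rickets, had 11.5 in cluster 6 against 0.394 in cluster 1. Fgfr1 and Fam20c, a receptor and a secretory kinase, were also highest in cluster 6 (33.1 and 23.5) without passing 2-fold above, and Galnt3 reached 3.82 there. Fgf23 had at most 10 counts in a sorted library, and Mepe was under the filter at 1.78 in cluster 6. Kl was at 0.206 or less in the sorted libraries and at 1.44 in the input. The matrix vesicle annexins did not follow this order, since Anxa5, Anxa2 and Anxa6 were at 332, 198 and 50.7 in cluster 6 and at 830, 425 and 81.9 in cluster 1.

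Of the genes listed with Mgp, Gas6, another vitamin K-dependent protein gene, shared its maximum in cluster 4 (308) and was lowest in cluster 6 (16.9). Spp1, encoding osteopontin, was above in cluster 6 (2681) and below in cluster 1 (194). Ggcx, the carboxylase that activates Gla proteins, had an RPKM of 9.25 in cluster 5 to 37.1 in cluster 6. Fetub was above in clusters 3 (3.82) and 6 (3.09) and Ahsg in cluster 6 (2.10). Vkorc1, the vitamin K reductase gene, had at most 6 counts, but all its exon bases are shared with Prss53 and ENSMUSG00000096145, so its level could not be read.

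**Figure D4:**
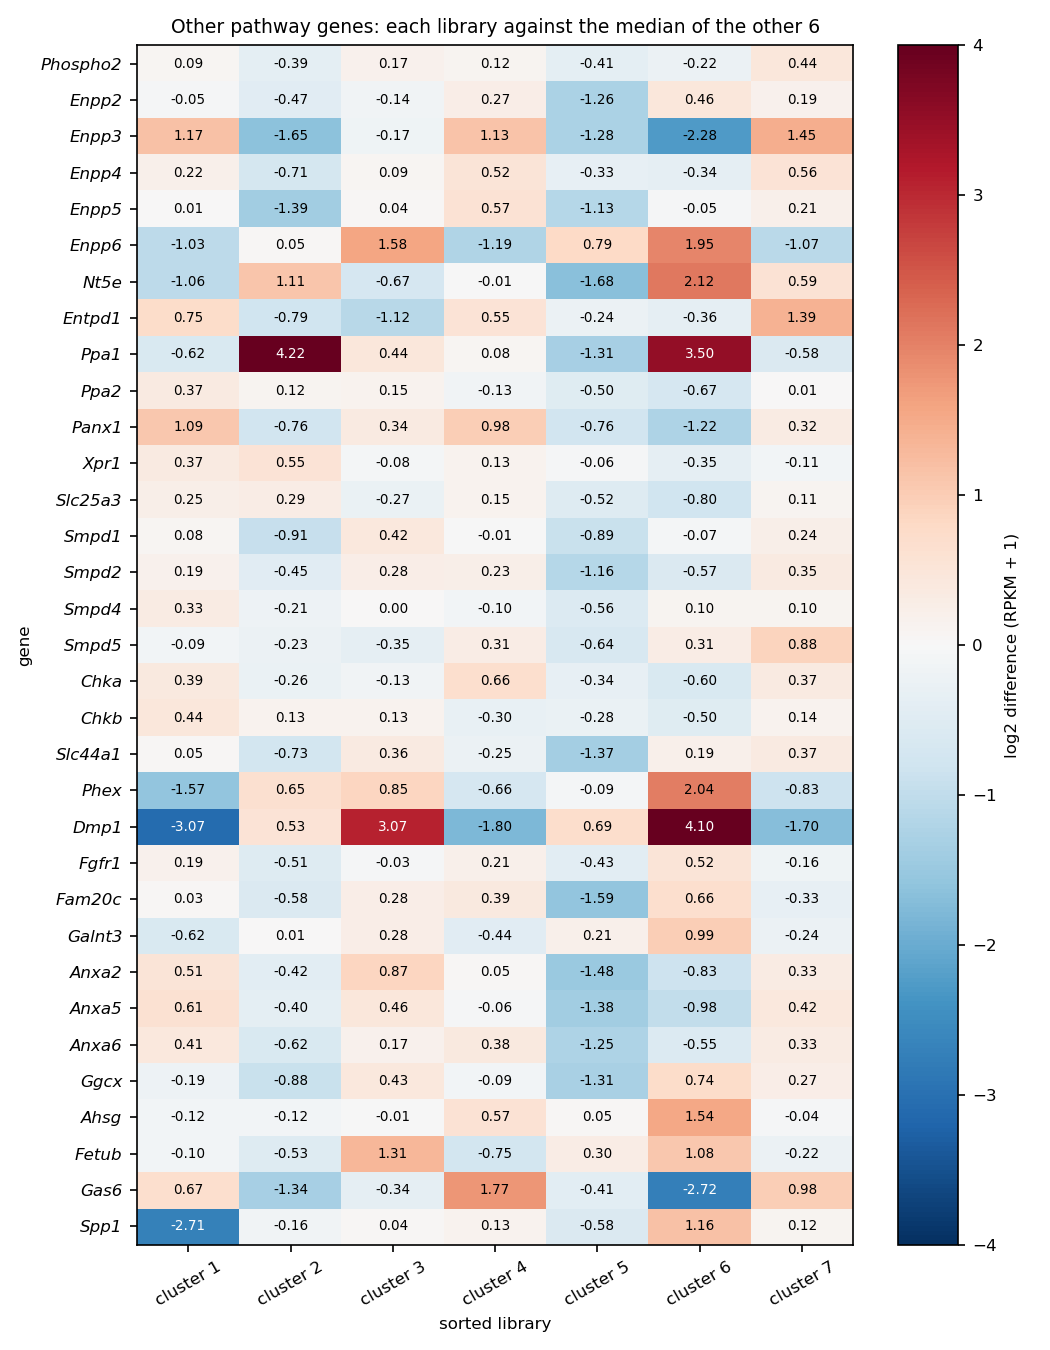
Log2 difference (colour and printed value, colour scale limited to 4 on either side of 0) between the RPKM + 1 of a sorted library (x axis) and the median of the other 6, for the 33 other pathway genes above the filter (y axis). Ppa1 was high in clusters 2 and 6 and Dmp1 in clusters 3 and 6, and cluster 5 was mostly below 0.

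Markers of other cells moved with several members. The 7 osteoblast genes summed to an RPKM of 4641, 9834, 31494, 3041, 13768, 38227 and 4001 in clusters 1 to 7, against 919 for the input. Bglap, encoding osteocalcin, was at 3176, 14020, 5097 and 11032 in clusters 2, 3, 5 and 6, and at most 276 in clusters 1, 4 and 7. Clusters 2, 3, 5 and 6, which had the higher Bglap, also had the higher Phospho1 and Smpd3. Of the 7 osteoblast genes, Bglap, Bglap2, Sp7 and Car3 divided the libraries in this way, with Car3, a carbonic anhydrase gene, at 68.1, 245, 115 and 272 in these libraries and at most 9.06 in clusters 1, 4 and 7. Col1a1, Ibsp and Runx2 did not, since Col1a1 was at 3435 in cluster 2 and 3979 in cluster 1, Ibsp was at 446 and 220 in clusters 3 and 5 and at 676 and 740 in clusters 4 and 7, and Runx2 at 4.37 and 4.43 against 5.72 and 5.03. Col1a1 and Ibsp were also highest in cluster 6, at 15952 and 3192, and Bglap2 was at 9949 in cluster 3. The transcription factor gene Sp7 was at 21.7, 20.8 and 38.6 in clusters 2, 3 and 6, lower in cluster 5 and at most 8.42 in the others. The 6 chondrocyte genes summed to 14837, 12292 and 5453 in clusters 6, 2 and 4, and to 597 to 1605 in the other sorted libraries. Col2a1, their most abundant gene in these libraries, was at 10541, 8611 and 3046, and Col10a1, the collagen gene of hypertrophic cartilage, at 373, 601 and 39.0. Cluster 6 thus carried both sets, all 6 chondrocyte genes and 6 of the 7 osteoblast genes being above by more than 2-fold there, as were 4.47% of all genes.

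Of the 4 osteocyte genes, Sost had at most 15 counts and Dmp1 made up most of the sum, 428 in cluster 6 and 208 in cluster 3. The 6 stromal genes summed to 7343, 3432, 10752, 7940, 3935, 8024 and 8692 in clusters 1 to 7 and to 8921 in the input. They did not share an order. Among the sorted libraries, Cxcl12, the chemokine gene of marrow stroma, was highest in cluster 4 (139). Dcn, Pdgfrb and Lepr were highest in cluster 7 (6424, 64.5 and 12.4), Pdgfra in cluster 1 (28.1) and Col1a2 in cluster 6 (6087). In the input Dcn was at 8008. The 5 smooth muscle and pericyte genes, with Acta2 as the most abundant in most libraries, summed to 7.56 in cluster 6 and 99.0 in cluster 7. In bulk RNA a higher share of a cell type and more RNA per cell cannot be told apart, and the part of these other cell types in the values of the 8 genes was not tested.

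RNA of cells that the gates should have removed was present. The 8 erythroid genes summed to 68517 in cluster 5, with Hba-a1 at 30376, and to 2260 and 1593 in clusters 4 and 6 and 690 for the input. Phospho1, which is also known from maturing red cells, was highest in cluster 6, where the erythroid sum was the lowest of the sorted libraries, and its value of 2.07 in cluster 5 stood beside the highest erythroid sum. The 7 neutrophil genes summed to 10805 in cluster 3 up to 28706 in cluster 7 and to 42331 in the input, with S100a9 the most abundant at 4834 to 11033 in the sorted libraries. Ptprc, which encodes CD45, was at 9.26 in cluster 7, at most 4.02 in the other sorted libraries and 13.5 in the input. Csf1r was highest in cluster 7 (15.0) among the sorted libraries, and the 5 macrophage and monocyte genes summed to 46.8 in cluster 3 up to 168 in cluster 7 and 293 in the input, with Ly6c2 the most abundant. The 5 B lineage genes summed to between 45.0 and 110 in the sorted libraries and 249 in the input. The 5 endothelial genes summed to between 2.37 and 11.4 in the sorted libraries and to 12.4 in the input. Pecam1 was at most 3.84 in a sorted library and at 4.08 in the input. Except for the osteocyte gene Sost, no marker list had a gene at 0 counts in a sorted library.

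**Figure D5:**
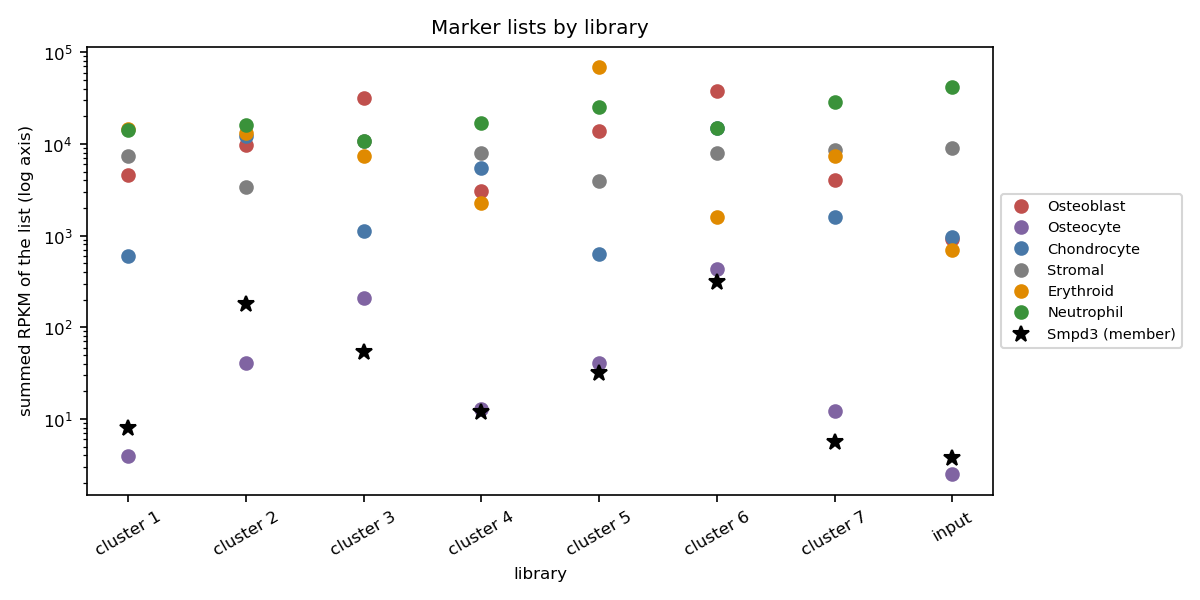
Summed RPKM (y axis, log scale) of 6 marker lists in each library (x axis), with Smpd3 as black stars and 1 library per position. The osteoblast sum was highest in cluster 6 (38227) and the erythroid sum in cluster 5 (68517), and Smpd3 was highest in clusters 2 and 6.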

How the data were processed

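For each library, the authors deposited a table of unnormalised read counts by Ensembl gene together with exon positions and length. Per their Methods, reads of polyA-selected libraries were trimmed and aligned by TopHat2 to mm9 in Partek Flow (2.2), although the deposited gene positions match GRCm38. How reads were counted, and by which tool, is not given in the sources used here. RPKM was computed from the counts, the exon length and the total count on genes, and differences used log2(RPKM + 1). The filter kept genes that exceeded an RPKM of 2 in 1 sorted library or more. No p-value is given, because each group had 1 library. Intervals are 95% exact Poisson for levels and exact binomial for ratios, and they cover counting error only, since the counts do not tell PCR copies from separate molecules. TMM factors (edgeR 4.0.16) and DESeq2 1.42.0 size factors were used for scaling only. Likeness was Pearson's r over the 7 sorted libraries.

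The 8 members, the pathway lists, the markers and the thresholds were chosen with earlier results of these data known. The rule for naming genes took the members, up to 4 genes of each list with the highest mean RPKM and those past 2-fold in a library. It also took the 3 genes most like each member. The rule gave more list genes than are named, and some were left out for length. Some list genes outside the rule were named as well, such as Enpp4, Enpp7, Abcc6, Fgf23 and Kl. The calculations were tested on simulated data. Calculations ran in Python 3.11.15 (scipy 1.17.1, pandas 2.3.3, numpy 2.4.6), figures in matplotlib 3.10.9 and scaling in R 4.3.3.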

Additional observations from a re-analysis of the deposited data

How the results depend on the processing

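No paired analysis was possible because a single library stood for every group. Leaving out a replicate was not possible either, and 95% intervals cover counting error only, which limits Phospho1 most, with 6 to 12 counts in clusters 1, 4 and 7. Of 170 values recomputed under alternatives, 124 kept within 1.5 times the count or within the interval, 45 moved and 1 reversed, and the causes were not tested. The 170 did not include the counts by library without cluster 6 or the differences of single genes against the input, so changes of sign there were not tallied. Between the highest and the lowest library, Slc20a1 passed 2-fold with DESeq2 size factors (log2 range 1.01) and Slc20a2 with a pseudocount of 0.1 (1.17). The number of members past 2-fold between the highest and the lowest library (6) stayed within 1.5 times under all scalings, the pseudocount of 0.1 and the omission of cluster 5 or 6. So did the number highest in the same library (5), but without cluster 6 it counted other genes, since Alpl, Phospho1 and Smpd3 were then highest in cluster 2, Enpp1 in cluster 7 and Ank in cluster 4, beside Slc20a1, Slc20a2 and Mgp. In cluster 6, 5 members were above in place of 3 with TMM factors and with DESeq2 size factors, and 1 was below when the 3 loci Rn18s-rs5, mmu-mir-689-2 and Lars2 were taken out of the total. The shares of all genes above or below were not recomputed under these scalings, and TMM factors raised every log2 value of cluster 6 by 0.37. In cluster 3, the 1 member above, Smpd3, became 0 under these 3 scalings. In cluster 5, 1 member was above under the same scalings and with a pseudocount of 0.1, which also gave 1 below, in place of 0. Without cluster 5, an alternative added after the data were seen, Phospho1 was no longer below in clusters 1, 4 and 7, which left 2 members below in cluster 1 in place of 3 and 1 in clusters 4 and 7 in place of 2. Leaving out cluster 6 lost the same calls and put Smpd3 and Phospho1 above in cluster 5. Phospho1 depended most on the pseudocount, its log2 range being 2.29 with 1 and 4.55 with 0.1. Against the input, 5 members passed with TMM factors or DESeq2 size factors in place of 3, with Ank and Mgp gained, but the share of all genes was not recomputed with these factors. Without cluster 5 or without cluster 6, 2 passed, in each case with Phospho1 lost (0.71).

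With Enpp1 and Ank summed in the denominator, the log2 ratio of Alpl reversed in cluster 1, from 1.44 to -0.51. It moved from 3.27 to 1.61 in cluster 2, 2.74 to 0.84 in cluster 3, 2.69 to 0.55 in cluster 4, 2.85 to 1.00 in cluster 5, 4.25 to 2.34 in cluster 6, 2.81 to 0.93 in cluster 7 and -0.25 to -1.39 in the input. The share of all genes past 2-fold was 20.9% without the RPKM filter and 68.8% with RPKM above 2 in all 7 sorted libraries.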
